A study of Mus musculus with 70 samples.

Results

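The expression of 8 genes through which striatal neurons receive and process dopamine signals was followed across 70 mouse libraries. They are the dopamine receptor genes Drd1, Drd2 and Drd3, the adenosine receptor gene Adora2a, the signalling genes Ppp1r1b and Rgs9, and the transcription factor genes Foxp1 and Rarb. The genes were chosen by name, with earlier results of these data known, and 8 of 8 were found among the 34677 genes of the expression table. Each tissue sample was punched from frozen sections at landmarks of a mouse brain atlas, and RNA was sequenced in bulk as strand-specific mRNA libraries.

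The adult set held 57 libraries of 18 regions from male C57BL/6 mice (substrain C57BL/6NTac in the study's methods) at postnatal day 56 (P56). Its regions were the nucleus accumbens (ACB, the only striatal region), the frontal pole (FRP), anterior cingulate (ACA) and entorhinal (ENT) cortex, the ventral tegmental area (VTA), and 5 hypothalamic areas, namely the arcuate (ARH), dorsomedial (DMH), lateral (LHA), paraventricular (PVH) and ventromedial (VMH). Hindbrain regions were the parabrachial nucleus (PB), the nucleus of the solitary tract (NTS) and the dorsal vagal complex (DVC), and cerebellar regions were the cerebellar nuclei (CBN), central lobule II (CENT2), culmen lobules IV and V (CUL4-5), the uvula (UVU) and the flocculus (FL). The embryonic set held 9 libraries of 4 regions from embryos of the same substrain at E14.5, namely forebrain (F), hypothalamus (THy-PHy), midbrain (M) and hindbrain (H). The last 4 libraries came from 2 C57BL/6 embryonic stem cell (mESC) lines, B6-1 and B6-2, which are 2 clones. A group had 2 to 4 libraries, apart from F with 1. No mouse was treated or genetically altered as far as the labels say. Brain libraries were pools of tissue from 3 or 4 mice, except 1 ACB library from a single mouse, and the labels do not say which. Replicate error is therefore the spread between pools. The study used fewer adult mice than adult regions, so that regions shared animals that the labels do not tie to libraries, and the tests treat libraries as independent. Adults, embryos and mESC were collected in different batches, so that stage and batch cannot be told apart. Punches hold many cell types, and in bulk RNA fewer cells of a type and less RNA per cell cannot be told apart.

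In the striatum, most neurons are medium spiny neurons, which receive dopamine from midbrain neurons of the VTA and the substantia nigra. Neurons of the direct pathway carry the D1 receptor, which raises cyclic AMP through the stimulatory G protein, whereas neurons of the indirect pathway carry the D2 receptor, which lowers it, together with the adenosine A2a receptor, which raises it. Cyclic AMP activates protein kinase A, which phosphorylates DARPP-32, the product of Ppp1r1b, and thereby turns it into an inhibitor of protein phosphatase 1. RGS9 speeds up the shutdown of G protein signals downstream of receptors that include D2. FOXP1 and the retinoic acid receptor RARB are transcription factors that act in the development of these neurons. The D2 receptor is also an autoreceptor on the dopamine neurons themselves.

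Promoter sequences are shown for the 3 dopamine receptor genes, whose levels were ordered differently across the brain, and for Rarb, whose transcript shares differed between ACB and other regions. Each runs from 250 bases before to 50 bases after a RefSeq start on GRCm38.p6, 5′ to 3′ on the strand of the gene. The windows are chr13:54055609-54055908 (minus strand) for Drd1, chr9:49340153-49340452 (plus strand) for Drd2, chr16:43761971-43762270 (plus strand) for Drd3 and chr14:16575427-16575726 (minus strand) for Rarb. Capitals mark every match, on either strand, to the letters searched.
Drd1: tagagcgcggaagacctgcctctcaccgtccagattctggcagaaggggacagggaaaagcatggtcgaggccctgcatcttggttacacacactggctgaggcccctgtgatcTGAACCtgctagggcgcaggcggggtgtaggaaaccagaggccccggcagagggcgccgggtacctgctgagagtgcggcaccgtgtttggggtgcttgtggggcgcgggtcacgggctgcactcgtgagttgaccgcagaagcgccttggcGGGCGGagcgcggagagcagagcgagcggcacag
Drd2: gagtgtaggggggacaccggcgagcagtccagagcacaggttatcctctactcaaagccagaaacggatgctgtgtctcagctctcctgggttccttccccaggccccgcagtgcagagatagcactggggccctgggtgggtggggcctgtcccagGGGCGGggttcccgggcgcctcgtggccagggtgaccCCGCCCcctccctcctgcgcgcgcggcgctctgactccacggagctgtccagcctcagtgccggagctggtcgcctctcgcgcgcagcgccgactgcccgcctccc
Drd3: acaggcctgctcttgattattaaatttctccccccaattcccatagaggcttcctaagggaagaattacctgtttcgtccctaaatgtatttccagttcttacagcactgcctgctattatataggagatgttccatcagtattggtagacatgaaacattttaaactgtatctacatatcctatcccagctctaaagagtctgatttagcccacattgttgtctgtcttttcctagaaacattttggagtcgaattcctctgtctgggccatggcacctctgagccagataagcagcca
Rarb: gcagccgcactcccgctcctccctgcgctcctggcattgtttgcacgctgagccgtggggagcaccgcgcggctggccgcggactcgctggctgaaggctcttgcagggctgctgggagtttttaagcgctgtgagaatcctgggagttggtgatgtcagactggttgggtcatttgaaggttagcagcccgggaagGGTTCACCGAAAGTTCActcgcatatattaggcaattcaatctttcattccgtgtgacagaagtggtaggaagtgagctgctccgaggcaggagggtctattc

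The search ran on both strands, and shares are given over the 32851 promoters of this length in the RefSeq table. TGACGTCA, the cyclic AMP response element, occurred in 1.79% of them, and its core TGACG, which also matches within it, in 20.81%. The retinoic acid receptor element AGGTCA occurred in 16.26% of them and the element GGTTCA in 10.39%. The forkhead letters TGTTTAC were in 3.65%, the Sp1 letters GGGCGG in 35.66% and the TATA box letters TATAAA in 13.62%. The Drd1 window held GGTTCA once, on the opposite strand, and GGGCGG once, and the Drd2 window held GGGCGG once on each strand. None of these letters were in the Drd3 window, which had a GC content of 42.0% and 2 CG pairs against 70.33% and 23 for Drd2, and against medians of 52.67% and 7 over all promoters. In the Rarb window, GGTTCA began 53 bases before the start and was the first part of GGTTCANNNNNAGTTCA, the direct repeat known as a retinoic acid response element of this gene. The repeat was added to the search after the sequence was seen, and it occurred in 2 of the 32851 promoters (0.00609%). A match describes the sequence only. The start of the Drd3 window is that of Drd3-201, the counted transcript of this gene, although the annotated gene begins further upstream. Drd2-201, the counted transcript of Drd2, begins at chr9:49340627, downstream of the printed window. A second RefSeq window of Drd1 (chr13:54054731-54055030) and those of Rgs9 and Foxp1 are not printed, and those of Adora2a and Ppp1r1b were not used here.

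Levels are given in TPM, a transcript abundance per transcript length that the authors scaled to the same sum in each library, and tests used estimated counts. Total estimated counts ranged from 9074581 to 22229582 per library, with a median of 17016935. The labelled tissue of ACB was checked against the medium spiny neuron markers Pde10a, Penk, Tac1, Pdyn, Gpr6, Rasd2 and Adcy5, which summed to 3810, 4181 and 3039 TPM in ACB replicates 1, 2 and 3 and to at most 285.8 TPM in a cortical library. Markers of cortical excitatory neurons summed to 31.7, 320 and 358 TPM in the same ACB libraries and to 1386 to 1809 TPM in the cortical ones. In VTA, dopamine neuron markers summed to 790.5, 1992 and 2336 TPM in replicates 1, 2 and 3. Mitochondrial transcripts took 39.6% of the TPM of VTA replicate 1, against 6.03% and 14.2% in the other two VTA libraries and a median of 7.71% over the adult libraries. Among the embryonic libraries, H replicate 1 stood apart, with 22.6% of TPM on mitochondrial transcripts and the lowest total count of all libraries (9074581).

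All 8 genes had their highest level in ACB, and each ACB library lay above each of the 67 other libraries for each gene. Such a complete separation held for 305 of 19351 genes (1.58%). The ratio of the lowest ACB library to the highest other library was 34.2 for Adora2a, and no other gene had a larger one. The same ratio was 11.99 for Drd1, 7.58 for Rarb, 5.05 for Ppp1r1b, 4.68 for Rgs9, 4.28 for Drd3, 1.51 for Foxp1 and 1.30 for Drd2. Ppp1r1b was the most abundant of the 8 in ACB and ranked 50 of 19351 genes by mean TPM, whereas Drd3 ranked 10751. ACB replicate 3 had the lowest level for each gene, and the coefficient of variation over the 3 ACB libraries was between 13.6% and 18.2%.

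**Figure D1:**
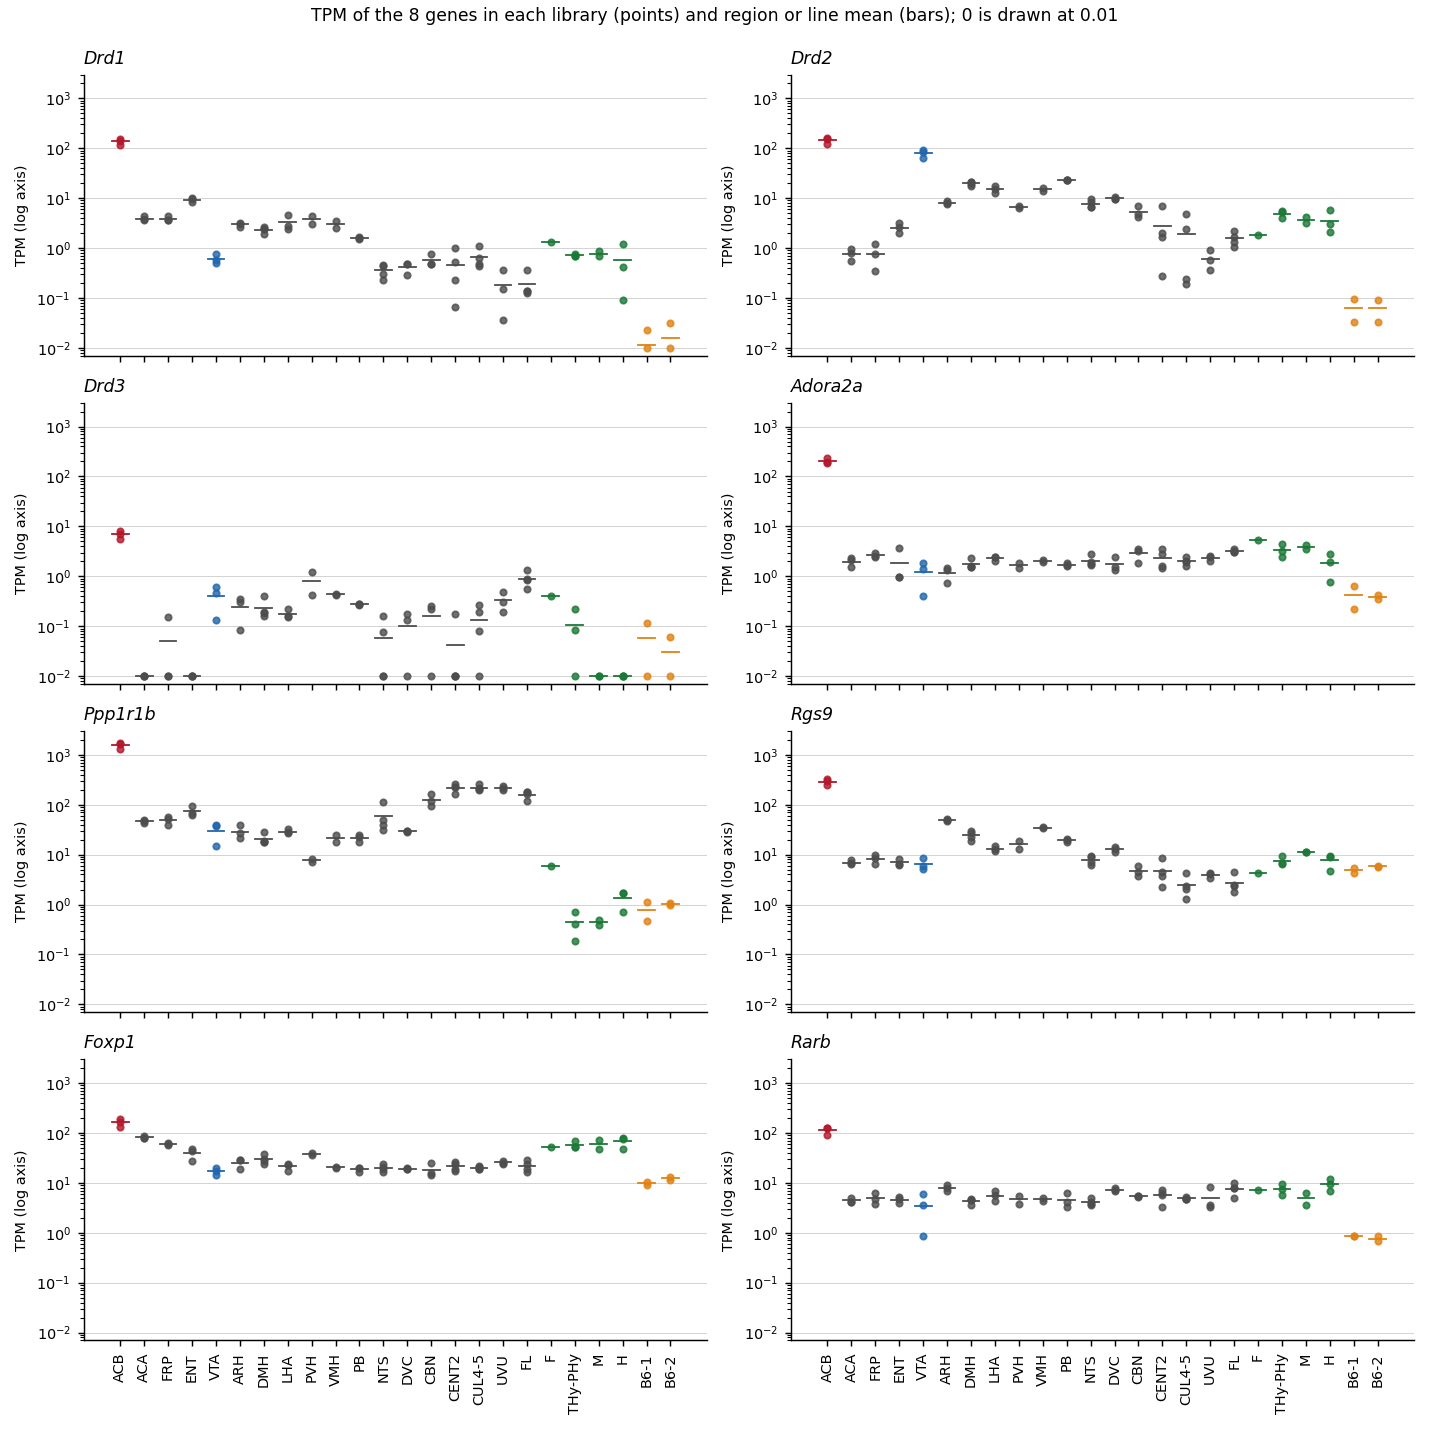
TPM of the 8 genes on a log axis in each library (points) and the mean of each region or line (bars), with ACB in red, VTA in blue, other adult regions in grey, embryonic regions in green and mESC lines in orange, and with 0 drawn at 0.01. The 3 ACB points lie above every other point in each panel, and the nearest other region is VTA for Drd2 and ACA for Foxp1.

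Drd1, the gene of the D1 receptor (chr13:54051183-54055705, minus strand), was present at 157, 140.5 and 119 TPM in ACB replicates 1, 2 and 3. The next highest region was ENT, with 9.52, 9.93 and 8.27 TPM, and the groups did not overlap. ACA (3.90 ± 0.389 TPM, mean ± SD, n = 3), FRP (3.87 ± 0.415), PVH (3.76 ± 1.00, n = 2), LHA (3.28 ± 1.23), VMH (3.06 ± 0.673, n = 2) and ARH (2.98 ± 0.261) came next and differed from their neighbours by less than the larger SD. Mean levels were under 1 TPM in VTA (0.609 ± 0.135), in NTS, DVC and all 5 cerebellar regions, and in 3 of the 4 embryonic regions, F being at 1.30 TPM. Of the sum of the 24 group means of Drd1, ACB held 77.2%.

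Drd2, the gene of the D2 receptor (chr9:49340627-49408177, plus strand), was present at 159, 155 and 122 TPM in ACB and at 62.8, 83.8 and 93.8 TPM in VTA. The lowest ACB library was above the highest VTA library, and all VTA libraries were above those of the other 22 groups. In VTA replicate 1, which had the lowest TPM and the high mitochondrial share, the estimated count of Drd2 was 2603, against 2067 and 2594 in replicates 2 and 3. PB followed with 22.9, 22.7 and 23.2 TPM, and DMH with 17.9 to 21.6 TPM over 4 libraries. LHA (15.3 ± 2.44) and VMH (15.1 ± 1.75) did not differ beyond their spread, and DVC was at 9.999 ± 0.329 TPM. ACA (0.765 ± 0.204), FRP (0.774 ± 0.429) and UVU (0.615 ± 0.265) had the lowest brain levels. The level of Drd2 varied within the anterior vermis, with 7.05, 1.67, 0.279 and 1.97 TPM in CENT2 replicates 1 to 4 and 4.74, 0.245, 0.187 and 2.43 TPM in CUL4-5 replicates 1 to 4.

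Drd3, the gene of the D3 receptor (chr16:43754026-43822932, plus strand), was low, at 8.115, 6.98 and 5.66 TPM in ACB, from 78 to 93 estimated counts per library. FL was next with 1.32, 0.565, 0.863 and 0.864 TPM, from 7 to 14 counts. Relative to total counts, ACB was 7.48-fold above FL (95% interval 5.44 to 10.5). These intervals cover counting error only. PVH followed with 0.417 and 1.23 TPM, which overlapped with FL, and all other groups were under 0.5 TPM on average. ACA, ENT, H and M were at 0 counts in all libraries. Against a floor of 3 counts per group, ACB was at least 88.4-fold higher than ACA, at least 80.6-fold higher than ENT, at least 67.5-fold higher than H and at least 53-fold higher than M.

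Adora2a, the gene of the A2a receptor (chr10:75316877-75334784, plus strand), was present at 236, 193.5 and 182 TPM in ACB. No other library exceeded 5.33 TPM, the level of the only F library. M (4.19 and 3.46 TPM) and THy-PHy (4.38, 2.39 and 3.21 TPM) came next and overlapped. Group means of the other 17 adult regions lay between 1.19 TPM in ARH and 3.21 TPM in FL, most of them within the larger SD of their neighbours. ACB held 80.3% of the sum of the 24 group means, the highest share of the 8 genes.

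Ppp1r1b, the gene of DARPP-32 (chr11:98348404-98357796, plus strand), was present at 1722, 1637 and 1298 TPM in ACB. It was next highest in the cerebellar cortex, and CUL4-5 (220 ± 25.5 TPM, n = 4), UVU (219 ± 21.04, n = 3) and CENT2 (218 ± 37.1, n = 4) did not differ beyond their spread. FL (159 ± 28.8) and CBN (125.5 ± 34.6) followed, then ENT (74.5 ± 16.1) and NTS, where replicate 1 was at 112 TPM and the other 3 libraries were between 31.7 and 49.6 TPM. PVH was the lowest adult region (7.69 ± 0.770, n = 2). Among embryonic regions F was at 6.03 TPM, whereas THy-PHy (0.442 ± 0.270) and M (0.440 ± 0.063, n = 2) were below both mESC lines (0.785 and 1.02 TPM on average), by less than the larger SD for the line B6-1.

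Rgs9, the gene of a regulator of G protein signalling (chr11:109225355-109298129, minus strand), was present at 323, 305 and 245 TPM in ACB. Hypothalamic areas came next, with 52.3, 46.2 and 49.3 TPM in ARH, 35.04 and 34.7 TPM in VMH and 29.98, 19.04, 26.6 and 22.3 TPM in DMH. ARH lay above VMH and VMH above DMH without overlap. PB (19.4 ± 1.05), PVH (16 ± 4.05), LHA (13.2 ± 1.58) and DVC (12.7 ± 1.56) followed. Rgs9 exceeded 1 TPM on average in all 24 groups, mESC lines included, with the lowest mean in CUL4-5 (2.50 ± 1.28).

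Foxp1, the gene of a forkhead transcription factor (chr6:98925338-99522721, minus strand), was present at 167, 193 and 133.5 TPM in ACB. ACA was next with 80.6, 88.2 and 77.8 TPM. H (67.9 ± 17.1), FRP (60.1 ± 4.00), M (58.8 ± 17.1, n = 2), THy-PHy (58.2 ± 9.99) and F (51.7 TPM) came next. These 5 groups did not differ beyond the larger SD of neighbours in that order. ENT was at 39.4 ± 10.6, and the lowest brain level was in VTA (17.01 ± 2.77). ACB held 17.8% of the sum of the 24 group means, the lowest share of the 8. Foxp1 was at 167 TPM in ACB replicate 1, which had 31.7 TPM of cortical excitatory markers, and at 193 and 133.5 TPM in replicates 2 and 3, which had 320 and 358 TPM of them.

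Rarb, the gene of retinoic acid receptor beta (chr14:16430839-16819156, minus strand), was present at 123, 127.5 and 90.05 TPM in ACB. No other library exceeded 11.9 TPM. H (9.42 ± 2.53), ARH (7.92 ± 1.03), THy-PHy (7.63 ± 1.93), FL (7.61 ± 1.97), F (7.29 TPM) and DVC (7.22 ± 0.540) followed and did not differ beyond the larger SD of neighbours. The mESC lines were at 0.876 and 0.762 TPM on average. Among its exonic bases, 1793 of 5265 (34.1%) overlap with exons of Top2b on the opposite strand, and the counting is not stated to have used strand. Top2b, a topoisomerase gene, was at 87.6 TPM in ACB and between 55.1 and 152 TPM in the other adult regions. Smaller overlaps were those of Rarb with Gm48162 on the opposite strand (227 of its bases), of Foxp1 with Gm49348 on the same strand (135 of 13751), of Ppp1r1b with 1700003D09Rik on the opposite strand (460 of 2928 exonic bases) and of Foxp1 with Gm20696 on the same strand (300 of 13751).

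The first comparison, of ACB with the 21 other brain regions, asked how far each gene was raised in the striatal region. A gene was called with edgeR's quasi-likelihood test at a Benjamini-Hochberg adjusted p under 0.05 over 19980 genes and an absolute log2 fold change above 1. All 8 genes were higher in ACB, against 8.17% of all genes tested. Fold changes compare means over regions on the log scale, so that a region of very high level weighs little. Drd1 had a log2 fold change of 7.18 ± 0.14 (SE, adjusted p = 6.757e-42) and Adora2a one of 6.83 ± 0.09 (adjusted p = 7.101e-48), the lowest p of all genes. The signalling genes Ppp1r1b (6.08 ± 0.14) and Rgs9 (5.03 ± 0.12) were followed by Rarb (4.96 ± 0.12), Drd2 (4.93 ± 0.19) and Foxp1 (2.63 ± 0.08). Their adjusted p-values lay between 9.567e-39 and 5.49e-28. For Drd3, 261 counts in 3 ACB libraries stood against 172 counts in the 63 other brain libraries, which is 29.8-fold relative to total counts (95% interval 24.5 to 36.3, adjusted p = 1.613e-19 by edgeR).

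Against cortex alone (ACA, FRP and ENT), which is telencephalic like ACB, all 8 genes were again higher in ACB, where 5.57% of all genes were called higher. The log2 fold change was 7.07 ± 0.16 for Adora2a, 6.89 ± 0.34 for Drd2, 5.20 ± 0.19 for Rgs9, 4.89 ± 0.19 for Rarb, 4.77 ± 0.21 for Ppp1r1b, 4.64 ± 0.20 for Drd1 and 1.39 ± 0.11 for Foxp1. For Drd3, 2 counts were found in 9 cortical libraries, a ratio of 396 (95% interval 109 to 3289). Both comparisons share the ACB libraries. Leaving out any single ACB library, the unnamed library from 1 mouse included, kept all 8 calls in both.

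The second question was where these genes stood outside the striatum, and ACB was left out of the 5 comparisons that follow. VTA, the source region of dopamine neurons, was set against 16 other adult regions. Drd2 was higher in VTA by a log2 fold change of 4.74 ± 0.20 (adjusted p = 1.116e-25), and Drd3 was called higher as well (adjusted p = 0.001853), where 6.73% of all genes were called higher and 3.57% lower. For Drd3, VTA had 18 counts in 3 libraries and the others 143 in 51, which is 1.96-fold relative to total counts (95% interval 1.13 to 3.21). This ratio is under the 2-fold threshold, and the fitted fold of 3.76 depends on 2 compared regions at 0 counts. The other 6 genes were not called. Ppp1r1b had a log2 fold change of -0.55 (adjusted p = 0.03826), which did not reach the fold threshold. With limma on log2 TPM the call of Drd3 was lost (adjusted p = 0.06996 with a pseudocount of 0.5 and 0.06041 with 0.1), and the median of all genes moved from -0.0044 to -0.39 or -0.47. On that scale 334 genes were higher and 1839 lower with a pseudocount of 0.5, and 410 and 2722 with 0.1, against 1345 and 714 by edgeR. Without VTA replicate 1, 880 genes were higher and 553 lower, and Drd2 and Drd3 kept their calls.

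Cortex was set against 14 other adult regions. Drd1 (log2 fold change 2.82 ± 0.13, adjusted p = 7.822e-26) and Foxp1 (1.76 ± 0.06, adjusted p = 7.753e-31) were higher in cortex, where 8.49% of all genes were called higher. Drd2 (-2.55 ± 0.27, adjusted p = 8.302e-12) and Drd3 (2 counts in 9 libraries against 159 in 45, a ratio of 0.0576 with a 95% interval of 0.00691 to 0.211, adjusted p = 1.133e-05) were lower, where 8.50% of all genes were called lower. With limma at a pseudocount of 0.5 the call of Drd3 was lost (log2 fold change -0.57). The genes of the D1 and the D2 receptor lay on opposite sides in cortex. Adora2a, Ppp1r1b, Rgs9 and Rarb were not called, with log2 fold changes between -0.29 and 0.26. For Ppp1r1b the mean TPM was lower in cortex (56.7 against 84.9), while its log2 fold change of 0.26 lay above 0. Cell markers also moved in this comparison. All 5 cortical excitatory markers (5.12 to 7.15) and 3 of 4 microglial markers were higher, and all 4 oligodendrocyte (-2.21 to -2.48), 2 of 4 astrocyte, 2 of 4 Purkinje cell, 2 of 3 cerebellar granule cell and 2 of 3 cholinergic markers were lower. So were the dopamine neuron markers Ddc (-2.59), En1, Slc18a2 (-1.89) and Th (-2.61) and the hypothalamic neuron markers Hcrt (-3.30), Pmch (-2.72) and Pomc (-1.03). No marker of these last lists was higher. Their part in the levels of the 8 genes was not tested.

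The 5 hypothalamic areas were set against 12 other adult regions. Rgs9 (log2 fold change 1.86 ± 0.10, adjusted p = 5.195e-23), Drd1 (1.78 ± 0.13, adjusted p = 2.941e-17) and Drd2 (1.60 ± 0.17, adjusted p = 1.465e-11) were higher, and so was Drd3 (adjusted p = 1.309e-04), where 6.39% of all genes were called higher. Drd3 had 56 counts in 14 hypothalamic libraries and 105 in 40 others, a ratio of 1.54 (95% interval 1.10 to 2.16). This ratio is below the 2-fold threshold of the call, whose fitted fold depends on 2 compared regions at 0 counts, and the call was lost with limma (log2 fold change 0.34 with a pseudocount of 0.5 and 0.91 with 0.1). The mean TPM of Drd2 was 13.02 in the hypothalamus and 11.4 in the others, VTA included. Ppp1r1b was lower (-2.06 ± 0.13, adjusted p = 1.465e-19), where 3.05% of all genes were called lower. Adora2a (-0.44), Foxp1 (0.06) and Rarb (-0.13) were not called. Markers of cells in the compared regions moved with Ppp1r1b, as 3 of 4 Purkinje cell markers (Car8 -2.41, Itpr1 -1.67 and Pcp2 -4.66), 2 of 3 granule cell markers (Cbln3 -4.33 and Neurod1 -3.34) and 3 of 5 cortical excitatory markers (Slc17a7 -4.34 among them) were lower. All 6 hypothalamic neuron markers were higher, and no astrocyte, oligodendrocyte or microglial marker was called. The medium spiny neuron markers Pdyn (3.76), Gpr6 (2.92), Tac1 (2.46) and Rasd2 (1.06) were also higher, and Adcy5, Pde10a and Penk were not called. Of the dopamine neuron markers, Slc6a3 (2.15), Th (1.52), Ddc (1.43) and Foxa1 were higher and Nr4a2 (-1.43) was lower. The part of these cells in the result was not tested.

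Within the vermis, the posterior UVU was compared with the anterior CENT2 and CUL4-5. None of the 8 genes was called, where 1.31% of all genes were called in either direction, and 2 of the 8 had an unadjusted p under 0.05. Drd2 was at 0.898, 0.372 and 0.575 TPM in UVU, within the range of the 8 anterior libraries. Its log2 fold change was -1.89 ± 0.59 (edgeR, adjusted p = 0.06854). It was called lower by DESeq2 (adjusted p = 0.008313), and by edgeR without CENT2 replicate 3, CUL4-5 replicate 2 or CUL4-5 replicate 3 (log2 fold change -2.08, -2.05 and -2.09). For Drd3, 10 counts in UVU stood against 8 in the anterior lobules (ratio 3.74, 95% interval 1.33 to 10.9, edgeR adjusted p = 0.2231), and without CENT2 replicate 1, which held 2 of those 8 counts, it was called higher (adjusted p = 0.04091). Ppp1r1b, at 219 TPM in both, differed by -0.03 ± 0.23.

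THy-PHy, the embryonic hypothalamus, was set against the 5 adult hypothalamic areas. Ppp1r1b was lower in the embryo by the widest margin, with 0.724, 0.414 and 0.187 TPM against 21.5 TPM on average in the adult (log2 fold change -5.94 ± 0.47, adjusted p = 3.285e-16). Drd1 (-1.81 ± 0.29), Rgs9 (-1.61 ± 0.23) and Drd2 (-1.26 ± 0.37, adjusted p = 0.002321) were lower as well, so that 4 of 8 genes were lower where 20% of all genes were called lower. Adora2a (1.39 ± 0.17, adjusted p = 3.438e-10) and Foxp1 (1.08 ± 0.11, adjusted p = 1.857e-12) were higher, where 18.2% of all genes were called higher. The call of Foxp1 was lost with ARH left out of the adult areas (log2 fold change 0.98) and without THy-PHy replicate 3 (0.89), and that of Adora2a with limma (0.74 and 0.87). Rarb (0.35 ± 0.21, adjusted p = 0.1407) and Drd3 (4 counts against 56, ratio 0.347, 95% interval 0.0915 to 0.940, adjusted p = 0.07107) were not called, although Drd3 was called lower without THy-PHy replicate 2 (log2 fold change -2.74, adjusted p = 0.0241) and with limma at a pseudocount of 0.1 (-1.20).

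**Figure D2:**
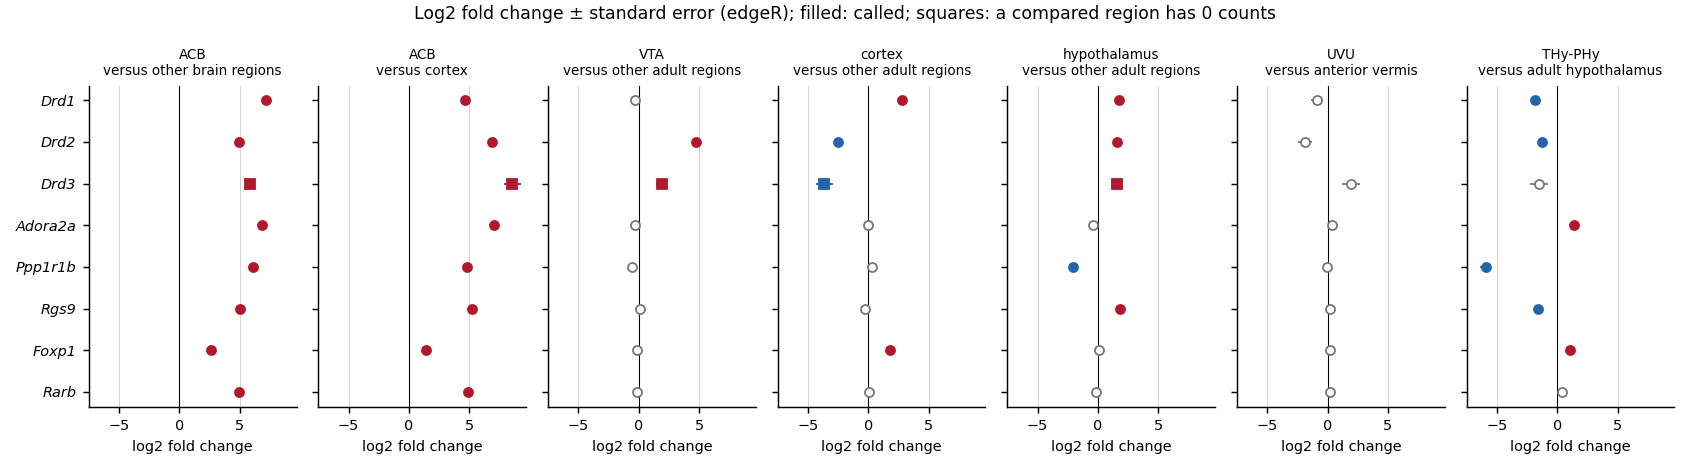
Log2 fold change with its standard error (edgeR) of the 8 genes in the 7 comparisons, with filled red points called higher, filled blue points called lower, open points not called and squares for genes with a compared region at 0 counts, whose fold depends on the prior count. All 8 points are red for ACB, 2 for VTA, and Ppp1r1b is the lowest point for THy-PHy at -5.94.

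Receptor balance was compared within libraries as the log2 ratio of TPM with 0.5 added to both. Drd1 and Drd2 were nearly equal in ACB, with a log2 ratio between -0.14 and -0.02 (mean -0.07 ± 0.06 SD, n = 3). This lay inside the wide range of the other adult libraries (-6.30 to 2.28, mean -1.62 ± 2.07, n = 54), and the difference did not pass (p = 0.2008 by an exact two-sided permutation test over libraries, and 0.2008 after adjustment over 4 tests). ACA, FRP and ENT were the adult regions with a positive mean ratio (1.81, 1.83 and 1.67), so that Drd1 exceeded Drd2 there. VTA had the lowest ratio, at -6.17 ± 0.16 (n = 3) against -1.36 ± 1.79 in 51 adult libraries without ACB, and the groups did not overlap (exact permutation test, p = 4.032e-05, the smallest that 24804 groupings can give, adjusted p = 8.064e-05). Libraries of 1 region are alike, and a region whose libraries are the lowest of all gives this p, so that it shows no more than VTA lying lowest of 17 regions. The same limit holds for the other tests of ratios.

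Adora2a and Drd2, which indirect pathway neurons share, had a log2 ratio of 0.49 ± 0.15 in ACB (n = 3) and -1.17 ± 2.03 in the other adult libraries (n = 54, p = 0.1644 by the same exact test, 0.2008 after adjustment). In VTA the ratio was -5.64 ± 0.43 (n = 3) against -0.91 ± 1.76 (n = 51, exact permutation test, p = 4.032e-05, adjusted p = 8.064e-05). PB (-3.40), DMH (-3.20), VMH (-2.62), LHA (-2.49) and ARH (-2.38) also had more Drd2 than Adora2a. UVU (1.39) and FRP (1.34) had the highest mean ratios among adult regions, at levels of Drd2 under 1 TPM.

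**Figure D3:**
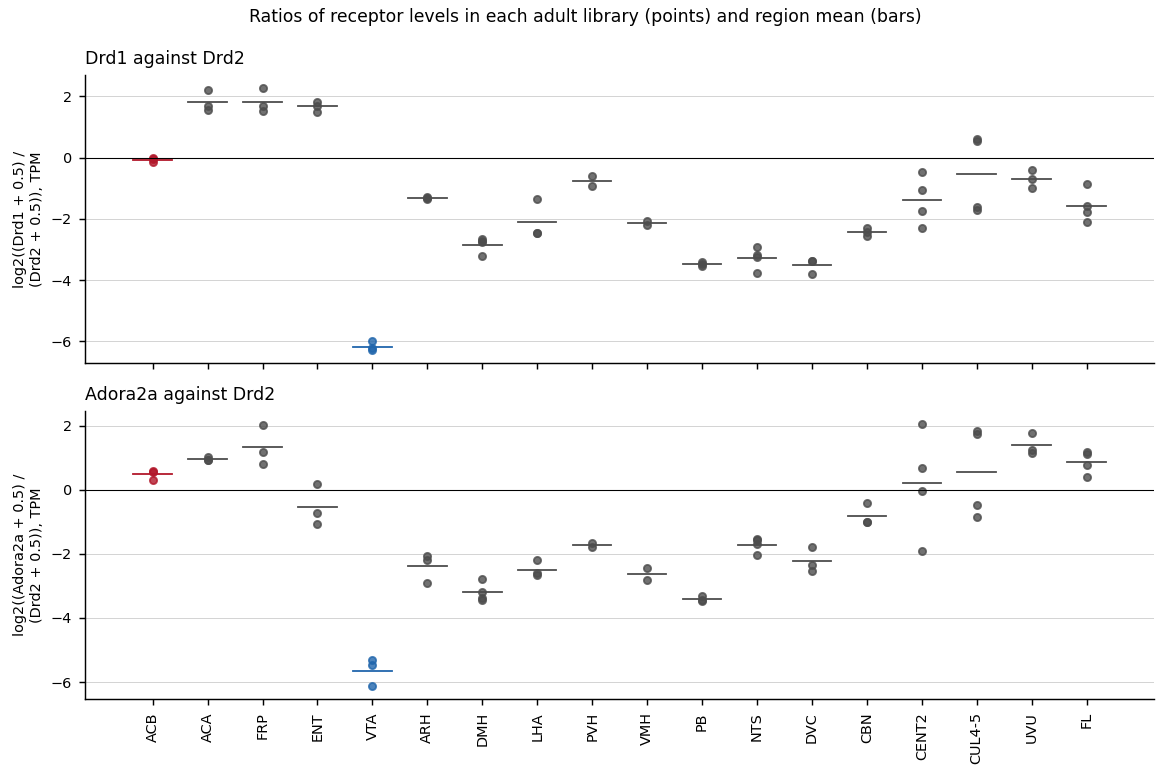
Log2 ratio of TPM + 0.5 of Drd1 to Drd2 (top) and of Adora2a to Drd2 (bottom) in each adult library (points) and the region mean (bars), with ACB in red and VTA in blue. ACB lies near 0 in both panels, the 3 cortical regions lie above 0 in the top panel, and VTA lies lowest in both.

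The shares of the annotated Rarb transcripts differed between ACB and other regions. Rarb-201, a protein-coding transcript of 3108 bases (chr14:16430839-16575543), held 46.4%, 58.4% and 60.8% of the Rarb TPM in ACB replicates 1, 2 and 3 and was at 54.8 to 74.4 TPM. It was listed at 0 in 66 of the 67 other libraries, and the highest value outside ACB was 0.000166 TPM in FL. Against the 23 adult libraries of 7 regions with at least 5 TPM of Rarb on average, the share was 55.2% ± 7.75 (n = 3) against 7.42e-05%, and the groups did not overlap. Rarb-201 was picked as the transcript with the highest mean TPM in ACB, so that this difference is a description with no test. By estimated counts the share in ACB was 80.2%, 85.2% and 87.7%. In ARH, Rarb-202, an annotated nonsense-mediated decay transcript of 1052 bases, held 53.2% of the TPM and Rarb-207, a protein-coding transcript of 2756 bases, 29.7%, and in FL they held 64.4% and 25.9%. Rarb-202 was also found in ACB, with 22.1%, 18.1% and 12.02% of the TPM in replicates 1, 2 and 3. The printed promoter window holds the annotated 5′ ends of Rarb-201 (chr14:16575543), Rarb-202 (16575472) and Rarb-205 (16575440), and Rarb-207 starts upstream of it (16575827). The RefSeq start of the window lies close to the 5′ end of Rarb-202. The 5′ end of Rarb-201 lies upstream of the repeat marked in the window, so that the repeat falls inside the annotated span of Rarb-201. Rarb-203 and Rarb-204, which start upstream near chr14:16819005-16819156, held 24.4% of TPM in ACB (19.6% to 29.0%), 33.5% in H (0% to 68.2%) and 15.3% in ARH. By estimated counts these shares were 4.46%, 11.02% and 4.13%. Rarb-201 shares 1793 of its bases with exons of Top2b, Rarb-207 1157, Rarb-202 162 and the others none, and the part of this overlap in the shares was not tested.

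**Figure D4:**
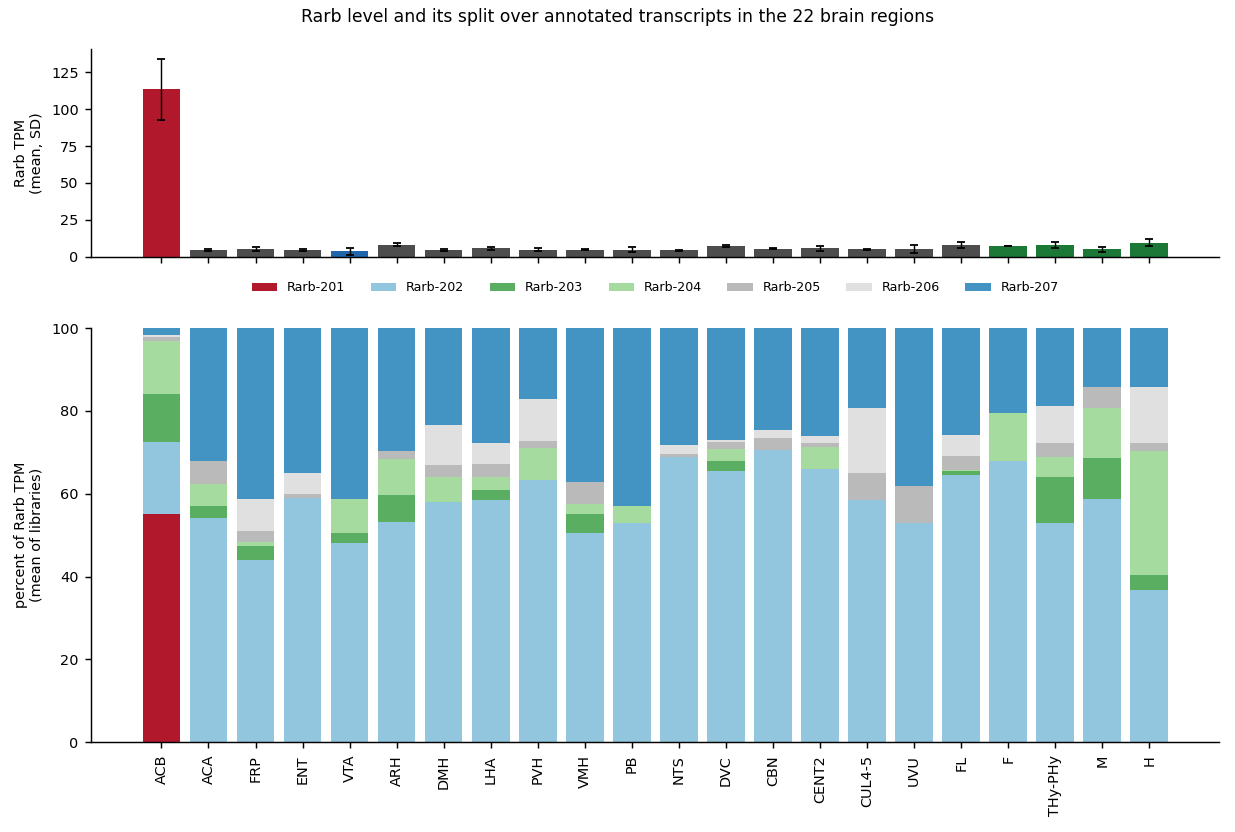
Mean TPM of Rarb with its SD (top, no SD for F with 1 library) and the mean percent of Rarb TPM on each of its 7 annotated transcripts (bottom) in the 22 brain regions. Rarb-201 (red) takes 55.2% in ACB and no visible part elsewhere, where Rarb-202 and Rarb-207 (blue shades) lead in most regions.

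The leading transcripts of Rgs9, Foxp1 and Ppp1r1b were picked in the same way, and their shares overlapped between ACB and the other regions. Rgs9-201 held 61.2% ± 3.96 of Rgs9 in ACB (n = 3) and 46.4% ± 12.3 in 36 libraries of 12 other regions. Foxp1-230 held 23.1% ± 4.55 in ACB against 17.5% ± 6.33 in 54 other adult libraries, and Ppp1r1b-201 56.4% ± 1.63 against 49.8% ± 11.8. Within ACB, Adora2a-201 held 97.4%, Drd1-202 60.6% and Drd1-201 31.6%. Drd2 and Drd3 had 1 counted transcript each.

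Genes around these receptors were counted in the same comparison of ACB with the other brain regions, with 8.17% of all genes higher and 4.89% lower. Of 13 genes of the cyclic AMP cascade, 12 were higher, with a median log2 fold change of 3.12 against 0.0 over all genes. This and the other lists were chosen with earlier results of these data known, and their counts are a description. They were led by the G protein subunit gene Gng7 (5.17 ± 0.08), the phosphoprotein gene Arpp21 (4.58 ± 0.08) and the phosphodiesterase gene Pde10a (4.14 ± 0.07). Ppp1ca, a catalytic subunit of protein phosphatase 1, did not reach the fold threshold (0.86 ± 0.06). Of 6 relatives and partners of RGS9, Rgs11 (1.60), Gnb5 (1.54) and Rgs7bp (1.30) were higher and the retinal anchor gene Rgs9bp was lower (-1.01, adjusted p = 0.04292, at 0.0793 TPM in ACB). Against cortex, where 5.57% of all genes were called higher, none of the 6 was called. A list of this size would hold about as few calls at that share. The median log2 fold change of the 6 was -0.47 against 0.0179 over all genes. Single values were 0.45 for Rgs11, 0.73 for Gnb5, -0.19 for Rgs7bp, -0.76 for Rgs9bp, -0.94 for Rgs6 and -0.96 for Rgs7. Gnb5, Rgs6 and Rgs7 had an adjusted p under 0.05 and did not reach the fold threshold. Drd5, the other gene of the D1 class, was higher in ACB than in the other brain regions (log2 fold change 1.09 ± 0.24, 2.50 TPM against 2.22 TPM on average). Against cortex it was not called (-0.52 ± 0.29, 2.50 against 3.46 TPM), and Drd4, at 0.124 TPM in ACB, was not called against the other brain regions.

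Among direct pathway genes 5 of 7 were higher, led by Pdyn (5.51 ± 0.20), the gene of prodynorphin, and including the muscarinic receptor gene Chrm4 (4.58 ± 0.10) and Tac1 (4.42 ± 0.24). Of the indirect pathway genes 3 of 4 tested were higher, with Gpr6 (7.24 ± 0.18) and Penk (4.37 ± 0.14), the gene of proenkephalin. Striatal transcription factors were higher in 11 of 13, among them Bcl11b (4.25 ± 0.14) and Meis2 (2.95 ± 0.28). Mean TPM was nevertheless lower in ACB than over the other regions for 4 of these 11, namely Dlx1 (41.75 against 59.4), Dlx2 (13.5 against 19.98), Gsx2 (0.912 against 1.92) and Sp8 (1.88 against 3.03), since the fold change compares means on the log scale. Dlx5 and Six3 had the highest fitted values of that list, but 5 and 2 of the compared regions had 0 counts of them, and mean TPM in ACB was 32.8 against 12.4 for Dlx5 and 53.05 against 19.9 for Six3. The retinoid genes, which bear on Rarb, were mixed, with 6 of 15 higher and 5 lower. Rxrg, a partner receptor of RARB, was at 93.6 TPM in ACB against 8.57 TPM (4.20 ± 0.13), and Stra6, the gene of a retinol transporter, was higher (3.08 ± 0.33). The synthesis enzyme gene Aldh1a2 (-2.63 ± 0.61) and the degrading enzyme gene Cyp26b1 (-2.60 ± 0.27) were lower. Markers of other cells also moved, as 4 of 5 cortical excitatory, 3 of 3 cholinergic, 4 of 4 oligodendrocyte and 4 of 4 microglial markers were higher in ACB, and their part in the levels of the 8 genes was not tested.

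In VTA, where Drd2 and Drd3 were called and 6.73% of all genes were higher and 3.57% lower, none of the 13 cyclic AMP genes was called, and of the 7 medium spiny neuron markers none was higher and 1, Pdyn, was lower (-1.79 ± 0.44). Lists of this size would hold about as few calls at those shares, so that these counts say little about the lists. All 8 dopamine neuron markers were higher, among them Slc6a3, the dopamine transporter gene (10.80 ± 0.14), and Th, the gene of tyrosine hydroxylase (5.85 ± 0.22). Within VTA the 3 libraries had the same order by Drd2 TPM as by the summed TPM of the dopamine neuron markers, both of which share the TPM scale of replicate 1 with its high mitochondrial share. By estimated counts of Drd2 the lowest library was replicate 2.

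In the embryonic hypothalamus, where 20% of all genes were called lower and 18.2% higher, 8 of 13 cyclic AMP genes and 6 of 7 medium spiny neuron markers were lower than in the adult areas, and none was higher. The lists share Adcy5, Rasd2 and Pde10a, and the lower calls of Adcy5 and Rasd2 are in both counts. Striatal transcription factors went the other way, with 11 of 13 higher and none lower, and retinoid genes were higher in 9 of 15 and lower in 3. Markers of other cells moved in the same comparison. Of the neural progenitor markers 3 of 4 were higher, namely Nes (log2 fold change 4.47), Pax6 (2.64) and Sox2 (1.66), whereas all 4 oligodendrocyte (-4.28 to -10.44), all 4 astrocyte (-1.11 to -10.59) and all 4 microglial markers (-1.21 to -2.06) were lower. Their part in these counts was not tested.

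Likeness to each of the 8 genes was measured as Pearson's r of log2(TPM + 1) over the 24 group means, among 15425 genes with a group mean of at least 5 TPM. All groups share the high point of ACB, so these values describe and test nothing. Among the 5 genes most like Drd1 was Gpr6 (r = 0.91), and most like Drd2 was Kazn (0.91), with Oprk1, the kappa opioid receptor gene (0.84), among its first 5. Adora2a was most like Cd4 (0.93) and Rarb (0.92), Drd3 most like Cd4 (0.91), Rgs9 most like Gpr6 (0.92), Ppp1r1b most like Lingo3 (0.92) and Foxp1 most like Fras1 (0.92). Between the 8 genes, r was highest for Adora2a and Rarb (0.92, and 0.72 over the 23 groups without ACB) and lowest for Ppp1r1b and Foxp1 (0.11, and -0.20 without ACB). Drd1 and Drd3 had an r of 0.74 with ACB and 0.03 without it, and Drd2 and Rgs9 had 0.71 and 0.56.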

How the data were processed

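RNA from pooled punches was sequenced by the authors as single reads of strand-specific libraries (CASAVA 1.8.2 for base conversion). The deposited estimated counts and TPM per transcript were made by the authors with Kallisto on the Ensembl cDNA of GRCm38, and the deposited gene TPM is their sum per gene. Whether Kallisto used strand is not given in the sources used here. Groups were taken from the labels. Transcripts were matched to genes with GENCODE mouse release 21 (107987 of 109282), and rounded sums of the estimated counts per gene were tested. For 373 gene names the matched TPM differed from the gene TPM, none of them among the 8 genes.

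Counts of all 70 libraries entered 1 quasi-likelihood fit in edgeR 4.0.16 (R 4.3.3) after TMM scaling and filterByExpr, with 1 group per region or line. Standard errors were taken from the log2 fold change and the F statistic. Alternatives were DESeq2 1.42.0, limma 3.58.1 on log2 TPM, a replicate block, other compared regions and libraries left out. Fits without a library kept the genes and the dispersion trend of the full set. Ratios were tested by exact permutation over libraries (SciPy 1.17.1). The same test of leading transcript shares was left out, because these transcripts were picked by their level in ACB. Intervals of count ratios are exact binomial ones at 95%. The fit was tested on simulated data. Named genes were the 8, up to 4 highest and 2 lowest called genes of each list and the 5 most alike genes of each member, of which some are printed, and Bcl11b, Meis2, Ppp1ca, Drd4 and Th were named after their values were seen. Members and lists were chosen with earlier results of these data known, and 1 gene of the lists is not reported here.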

Additional observations from a re-analysis of the deposited data

Results flagged for a closer look

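In regions with 4 libraries, 40 sets of values were tested for a library far from the other 3 by Dixon's ratio, and chance flags about 1 in 20 such sets. Drd1 in FL was at 0.369 TPM in replicate 1 and at 0.123 to 0.137 TPM in the others. Drd3 in CENT2 was at 0.172 TPM in replicate 1, from 2 counts, and at 0 in the others. The other 3 sets were in DMH and fell on 3 different libraries. Drd3 was at 0.404 TPM in replicate 2 against 0.159 to 0.192 TPM, Adora2a at 2.32 TPM in replicate 4 against 1.52 to 1.58 TPM, and Ppp1r1b at 28.4 TPM in replicate 3 against 17.6 to 18.9 TPM.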

How the results depend on the processing

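Of 33 calls of the 8 genes, 28 were kept in every one of their refits, and of 495 refits 486 kept the call, 9 lost it and none turned the sign. The 5 calls that were lost in a refit were Drd3 for VTA (limma 0.32 and 0.8), cortex (-0.57) and hypothalamus (0.34 and 0.91), and Adora2a and Foxp1 for THy-PHy. With limma at a pseudocount of 0.5 or 0.1, VTA had 1 of the 8 genes higher, with 0.1 also 1 lower (Drd1, -1.01), and 334 or 410 genes higher and 1839 or 2722 lower over all genes. At 0.5, 1 member was lower in cortex, with 1334 of 20577 genes lower and 1062 higher, and the hypothalamus had 814 genes higher and 329 lower. THy-PHy had 1 member higher with limma at either pseudocount, where 2913 (at 0.5) and 3261 (at 0.1) of 20577 genes were higher, and with ARH left out. DESeq2 called 1 member and 216 genes lower in UVU. VTA had 880 genes higher without replicate 1. The cause of these shifts was not tested. Leaving out 1 library at a time gave 880 to 1532 genes higher for VTA, 0 to 1 members higher, 0 to 1 lower and 70 to 213 genes lower for UVU (141 with all libraries, 213 without UVU replicate 1, 70 without UVU replicate 2, 74 without UVU replicate 3 and 212 without CENT2 replicate 3), and 1 to 2 members higher for THy-PHy.

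Signs turned only for results that were not called. Not all of them are listed here. For VTA these included Rgs9 (limma -0.53 and -0.53, and -0.13 to 0.26 with 1 library left out), Rarb (-0.49 to 0.2) and Foxp1 (-0.38 to 0.05), where the sign turned without VTA replicate 1 for Rgs9 and Rarb and without replicate 2 for Foxp1. For limma at 0.5 and 0.1 they included Adora2a (0.04, 0.05) and Rarb (-0.12, -0.12) in cortex, Rarb in the hypothalamus (0.1, 0.11), and Ppp1r1b (0.01, 0.01) and Rarb (-0.15, -0.16) in UVU. For UVU with 1 library left out, Ppp1r1b gave -0.13 to 0.06 and Rarb -0.11 to 0.41, and the latter turned without UVU replicate 1.

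Replicate numbers were not taken to pair the libraries, since not every pair of libraries with the same number had an r above 0.1 (median r 0.0148 over 436 pairs, 64 of them above 0.1, against -0.00343 over 1095 pairs of different numbers, 93 of them above 0.1). With the number as a replicate block, 1626 genes were higher and 965 lower in ACB than in the other brain regions, against 1632 and 978, and no call of the 8 genes changed. The 24 refits of the ratios kept their side of the threshold. Depth limited Drd3, which had under 15 counts in every library outside ACB.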
